A study of Mus musculus with 56 samples.

Results

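The genes described here are 10 genes of the glucocorticoid, or stress hormone, response in mouse calf muscle: Arrdc2, Tsc22d3, Gadd45g, Mt1, Mt2, Cebpd, Sgk1, Klf9, Fkbp5 and Nr3c1, the gene of the glucocorticoid receptor itself. They were taken as a list by name, and every probe set annotated to one of them was looked up, which gave 28 of the 45037 probe sets on the arrays. All 10 genes had a probe set above the level at which genes were tested, out of 12347 genes tested in all. The members were chosen by a list of names drawn up with the group differences of these arrays known, so the group differences below describe the members and are not independent evidence about the pathway.

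RNA of the gastrocnemius, the large muscle of the calf, was measured on 56 arrays from 55 female C57BL/6 mice. Exposed mice breathed 4% mainstream cigarette smoke through the nose for 2 hours on 5 days of each week, and sham mice breathed air on the same schedule. The groups were smoke for 2, 12 or 24 weeks, sham air for 2, 12 or 24 weeks, untreated mice at week 0 and 2 cessation arms. Cessation mice had 12 weeks of smoke followed by 12 weeks labelled RA or FA. The group names do not show whether RA mice were handled as the sham mice were. Each group had 6 mice, except smoke at 12 weeks, which had 7, of which mouse G8 had 2 arrays that were averaged. The sources used here do not say what RA and FA stand for, and labels of the sham air groups carry FA while none carries RA. The ages of the mice and the hour at which the muscle was taken were not stated in the labels. The mice are taken as separate animals from the labels, and each value is from a piece of muscle.

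Glucocorticoids are steroid hormones of the adrenal cortex, corticosterone in mice, whose release follows stress and the daily cycle of rest and activity. In the cell the hormone binds the receptor Nr3c1, which is held in the cytoplasm by heat shock protein chaperones, enters the nucleus with the hormone and binds response elements near its target genes. In skeletal muscle the hormone is known for raising genes that restrain growth, break down protein and shift fuel use. Metallothioneins are small cysteine-rich proteins that bind zinc, copper and cadmium, and their genes respond both to metals, through the transcription factor Mtf1, and to glucocorticoids.

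Levels are given as log2 of the deposited intensity plus 16, written as a log2 level, and differences between groups are on the same scale. Errors of means are SDs between mice and errors of differences are SEs. A fold is 2 to the power of the difference and understates changes of dim genes. A gene was called at a Benjamini-Hochberg adjusted p under 0.05 over the 12347 genes in a limma model of all 9 groups. All adjusted p values below are from this model, and levels of different genes are not compared, since each probe set has its own brightness.

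Of the 56 arrays, 11 held strong signal of lymph node genes. Their mean over the 10 measured lymphocyte markers of 17 listed was 9.16 to 11.37, against 4.85 to 8.44 on the other 45 arrays. Such an array was present for 3 of 6 mice of smoke at 24 weeks, 2 of 7 of smoke at 12 weeks, 3 of 6 of cessation RA, and 1 of 6 each of sham air at 2 weeks, sham air at 24 weeks and untreated mice. Smoke at 2 weeks, cessation FA and sham air at 12 weeks had 0 at the limit of 8.5 used here. Replicate 4 of cessation FA lay just under it, at 8.44, where the next highest array was at 6.53. All 12 fast muscle fibre markers were measured, and their mean was 13.49 to 13.54 in every group. Whether the mean of such bright genes follows the share of muscle in a piece was not tested. Array medians of intensity were 62.5 to 77.5. Leaving out the 11 arrays leaves 45 mice, among them G8 through its other array and replicate 4 of cessation FA, and results are also given over these 45 mice. In pieces of whole muscle, fewer cells of a type and less RNA per cell cannot be told apart.

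The DNA around the transcription starts of these genes was searched for elements of the metal and hormone responses. Promoters in the RefSeq tables for GRCm38.p6, each 300 bases around a transcription start, were matched to 8 of the 10 genes, with 15 promoters in all. The metal response element, searched on both strands as TGCACNC or TGCGCNC, occurred 3 times in the promoter of Mt1 and 4 times in that of Mt2, while 25.7% of all 32851 promoters held at least 1 and 1.97% held 3 or more. Both metallothionein promoters are shown because they carry the most matches to the metal response core among the listed genes, with each match in capitals. Mt1 lies on the + strand at chr8:94178839-94179138 and Mt2 on the + strand at chr8:94172368-94172667.
Mt1: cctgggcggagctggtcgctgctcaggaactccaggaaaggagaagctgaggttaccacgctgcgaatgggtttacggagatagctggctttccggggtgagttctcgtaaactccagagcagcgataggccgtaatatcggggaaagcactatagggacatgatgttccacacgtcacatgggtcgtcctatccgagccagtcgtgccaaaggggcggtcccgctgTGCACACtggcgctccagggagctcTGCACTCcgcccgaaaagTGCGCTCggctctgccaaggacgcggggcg
Mt2: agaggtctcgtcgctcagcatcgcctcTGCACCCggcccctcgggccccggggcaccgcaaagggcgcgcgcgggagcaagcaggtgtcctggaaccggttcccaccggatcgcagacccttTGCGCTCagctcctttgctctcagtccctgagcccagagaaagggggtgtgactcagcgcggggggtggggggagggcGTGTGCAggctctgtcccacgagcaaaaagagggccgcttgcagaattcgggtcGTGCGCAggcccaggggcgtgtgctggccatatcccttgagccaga

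The full glucocorticoid response element, searched as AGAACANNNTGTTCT, was found in 3 of the 32851 promoters, 0.00913%, and 1 of these belongs to Sgk1. It is shown with the element in capitals, on the + strand at chr10:21993640-21993939, as the only listed gene with the full form in a promoter window.
Sgk1: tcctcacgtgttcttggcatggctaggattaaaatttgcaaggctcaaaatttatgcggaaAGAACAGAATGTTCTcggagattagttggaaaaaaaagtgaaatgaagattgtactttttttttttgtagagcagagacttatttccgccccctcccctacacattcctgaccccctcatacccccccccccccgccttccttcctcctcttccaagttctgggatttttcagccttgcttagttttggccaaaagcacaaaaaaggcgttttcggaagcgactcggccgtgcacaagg
The half-site AGAACA, which the full form contains on both strands, was in 19% of all promoters, and among the listed genes in 1 of 3 promoters of Tsc22d3 and 3 of 6 of Sgk1. Gadd45g had 2 matches to the metal response element, and the promoters of Arrdc2 and Klf9 had none of the searched motifs in these windows. A match is a description of the letters and not of binding.

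The clearest difference among the listed genes was between the mice of cessation RA and those that breathed sham air for 24 weeks. Arrdc2, Tsc22d3, Gadd45g and Mt2 were lower in cessation RA, so that 4 of 10 listed genes were called, all in that direction, where 1.76% of all genes were called in either direction and 1.15% were lower. In these same 4 genes no cessation RA mouse reached the lowest sham air mouse, a separation that 2.18% of all genes showed in either direction. For the other comparisons below that share is not given, so a lack of overlap there only describes the mice. The median difference over the 10 genes was -0.58, against -0.01 over all genes, and 9 of 10 lay below 0, as did 53.2% of all genes. Without the lymph node arrays 4 of 10 were called as well, where 3.43% of all genes were called, and the set differed by 1 gene, with Mt1 called and Mt2 not. Of the 10 measured adipocyte markers 6 were below 0 in cessation RA against sham air, with a median of -0.07, and over the 45 mice 8 of 10 were, with a median of -0.95 and 0 called. The mean of these markers was 9.63 to 11.94 in cessation RA and 9.99 to 12.08 in sham air mice, and their part in the differences was not tested.

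Cessation FA mice were set against the same sham air group. Of the 10 genes 0 were called and 3 had an unadjusted p under 0.05, where 0.081% of all genes, 10 in number, were called and 7.01% had such a p. Here 8 of 10 differences lay below 0, where 55.2% of all genes did, with a median of -0.33 against -0.02 over all genes. Replicate 4 of cessation FA stays in that comparison over the 45 mice, where all 10 lymphocyte markers lay above 0 with a median of 0.83, and 0 listed genes were called with that mouse left out too. Both arms share the sham air group, so their differences from it are not separate evidence. Set directly against cessation FA, cessation RA had 0 of 10 called, 3 at an unadjusted p under 0.05 and 9 of 10 differences below 0, where 0.0243% of all genes, 3 in number, were called, 4.15% had such a p and 48.2% lay below 0.

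Mice still smoking at 24 weeks were set against both arms. Against cessation RA, 3 of 10 genes were higher in smoke and called, namely Arrdc2, Tsc22d3 and Sgk1, where 2.34% of all genes were called. Against cessation FA, Tsc22d3 alone of the 10 was called, higher in smoke, where 3.55% of all genes were called. In a fit of only the compared groups the calls against cessation RA were lost, with adjusted p of 0.198 for Arrdc2, 0.155 for Tsc22d3 and 0.776 for Sgk1, and that of Tsc22d3 against cessation FA was lost too.

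Smoke against sham air at the same week called 0 of the 10 genes at each time. At 2 weeks 0% of all genes were called, and the listed genes differed by -0.05 to 0.47, with 0 at an unadjusted p under 0.05 where 2.07% of all genes had one. At 12 weeks 0.0081% of all genes, 1 gene, were called, and the listed genes differed by -0.09 to 0.20, with 0 at an unadjusted p under 0.05 where 1.86% of all genes had one. At 24 weeks 0.47% of all genes, 58 in number, were called. The listed genes then differed by -0.84 to 0.08, 9 of 10 lay below 0, where 55.2% of all genes did, and 4 had an unadjusted p under 0.05, where 24.7% of all genes did. All 8 slow muscle fibre markers also lay below 0 there, with a median of -0.45 and 0 called, and their mean was 10.82 to 12.65 in smoke and 11.95 to 12.69 in sham air mice. Their part was not tested.

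The change of the smoke effect between 2 and 24 weeks was tested directly and called 0 of the 10 genes, with 4 at an unadjusted p under 0.05, where 0.0324% of all genes, 4 in number, were called and 18.6% had such a p. The smoke effect averaged over the 3 times also called 0 of 10, with 0 at an unadjusted p under 0.05, where 0.0324% of all genes were called and 9.17% had such a p.

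**Figure D1:**
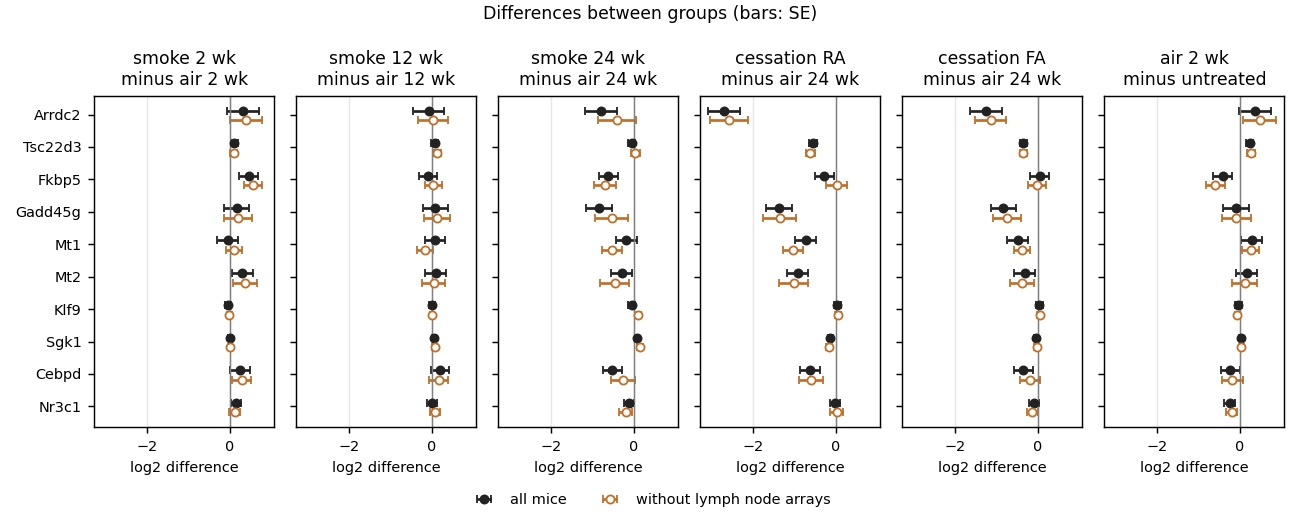
Differences on the log2 scale (horizontal axis) with their SEs for the 10 listed genes in 6 comparisons, over all mice (filled) and without the lymph node arrays (open), where G8 stays through its other array. Arrdc2 lies furthest from 0 in cessation RA minus sham air at 24 weeks, at -2.70 and -2.59, while every gene lies within 0.57 of 0 in smoke minus air at 2 weeks and within 0.21 at 12 weeks.

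Arrdc2 encodes an arrestin domain protein of a family that links membrane receptors to ubiquitin ligases, and its mRNA is known as a glucocorticoid target in muscle. Its log2 level in cessation RA was 7.27 at the lowest, 7.91 at the median and 8.31 at the highest. In sham air at 24 weeks these were 9.47, 10.63 and 11.41. Every RA mouse lay more than 1 unit under every sham air mouse. The difference was -2.70 ± 0.39, which is 6.50-fold lower in cessation RA (adjusted p = 1.2e-05). It was -2.59 over the 45 mice (adjusted p = 0.000714).

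In cessation FA the Arrdc2 levels were 8.69, 9.08 and 10.26, between those of cessation RA and sham air. No RA mouse overlapped an FA mouse, but the difference of -1.44 ± 0.39 was not called (adjusted p = 0.317). Against sham air at 24 weeks 4 of 6 FA mice lay under the lowest sham air mouse, and the difference of -1.26 ± 0.39 was not called (adjusted p = 0.274). Smoke at 24 weeks had the widest spread of the exposed groups, with 8.36, 9.84 and 10.80, overlapping sham air, from which it differed by -0.80 ± 0.39 (adjusted p = 0.193), or by -0.41 without the lymph node arrays. All 6 of these smoke mice lay above the highest cessation RA mouse, with a difference of 1.91 ± 0.39, or 3.75-fold higher in smoke (adjusted p = 0.00299).

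Ordered by group mean, Arrdc2 ran from sham air at 24 weeks (10.58 ± 0.74) at the top through smoke at 2 weeks (10.17 ± 0.42), sham air at 12 weeks (10.06 ± 0.45), smoke at 12 weeks (9.99 ± 0.75) and sham air at 2 weeks (9.85 ± 0.40). Smoke at 24 weeks (9.78 ± 1.00), untreated mice (9.48 ± 1.03), cessation FA (9.32 ± 0.59) and cessation RA (7.88 ± 0.40) followed. Only the last step, between the cessation arms, was larger than the pooled SD within groups of 0.69. The untreated mice were the most scattered, with 7.88 at the lowest, 9.55 at the median and 10.64 at the highest, so the lowest untreated mouse lay at the level of cessation RA.

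Tsc22d3 encodes the leucine zipper protein GILZ, a direct receptor target that mediates part of the hormone's anti-inflammatory action. Its levels in cessation RA were 11.50, 11.75 and 11.88 at the lowest, median and highest. In sham air at 24 weeks they were 12.13, 12.27 and 12.50, with no overlap. The difference was small but tight, -0.54 ± 0.09, or 1.46-fold lower in cessation RA (adjusted p = 0.000182). The value over the 45 mice was -0.61 (adjusted p = 0.000903).

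Cessation FA also lay wholly below sham air for Tsc22d3, with 11.68, 11.93 and 12.08. The difference of -0.35 ± 0.09 was not called (adjusted p = 0.15, unadjusted p = 0.000346). Smoke at 24 weeks, with 11.94, 12.25 and 12.40, overlapped sham air and lay wholly above cessation RA, by 0.50 ± 0.09 (adjusted p = 0.000686). Against cessation FA, 5 of 6 of these smoke mice lay above the highest FA mouse, with a difference of 0.30 ± 0.09 (adjusted p = 0.0479), a call that held in 4 of 12 fits with 1 mouse left out. With the mean of the gene's probe sets the difference was 0.26 against cessation RA (adjusted p = 0.0713) and 0.09 against cessation FA (adjusted p = 0.441), and neither was called. Of the other probe sets of Tsc22d3, the bright one gave -0.57 in cessation RA against sham air, while the dimmer ones gave -0.01 and -0.18, so the probe sets do not give 1 value.

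Among all groups Tsc22d3 was highest in smoke at 2 weeks (12.31 ± 0.12), where the spread was narrow, and lowest in cessation RA (11.73 ± 0.14). Sham air stood at 12.19 ± 0.07 at 2 weeks, 11.98 ± 0.14 at 12 weeks and 12.27 ± 0.14 at 24 weeks. Sham air at 2 weeks was 0.24 ± 0.09 above untreated mice (11.95 ± 0.20), with 4 of 6 air mice above the highest untreated mouse and an adjusted p of 0.354.

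Gadd45g encodes a small stress sensor that binds and activates a MAP kinase kinase kinase and takes part in growth arrest. In cessation RA its levels were 8.63, 9.37 and 9.75, against 10.19, 10.52 and 11.17 in sham air at 24 weeks. The groups did not overlap. The difference was -1.38 ± 0.31, or 2.60-fold lower in cessation RA (adjusted p = 0.00982). It was -1.35 over the 45 mice (adjusted p = 0.0495).

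Smoke at 24 weeks (8.66, 9.97 and 10.19) and cessation FA (9.17, 9.63 and 10.51) both centred below sham air for Gadd45g. In smoke, 5 of 6 mice lay under the lowest sham air mouse, and the difference of -0.84 ± 0.31 was not called (adjusted p = 0.11) and was -0.53 without the lymph node arrays. In cessation FA the difference of -0.83 ± 0.31 was not called either (adjusted p = 0.48). The sham air mice of 24 weeks had the highest mean of all groups, 10.64 ± 0.40, while sham air at 12 weeks was 9.67 ± 0.43 and at 2 weeks 9.96 ± 0.50.

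**Figure D2:**
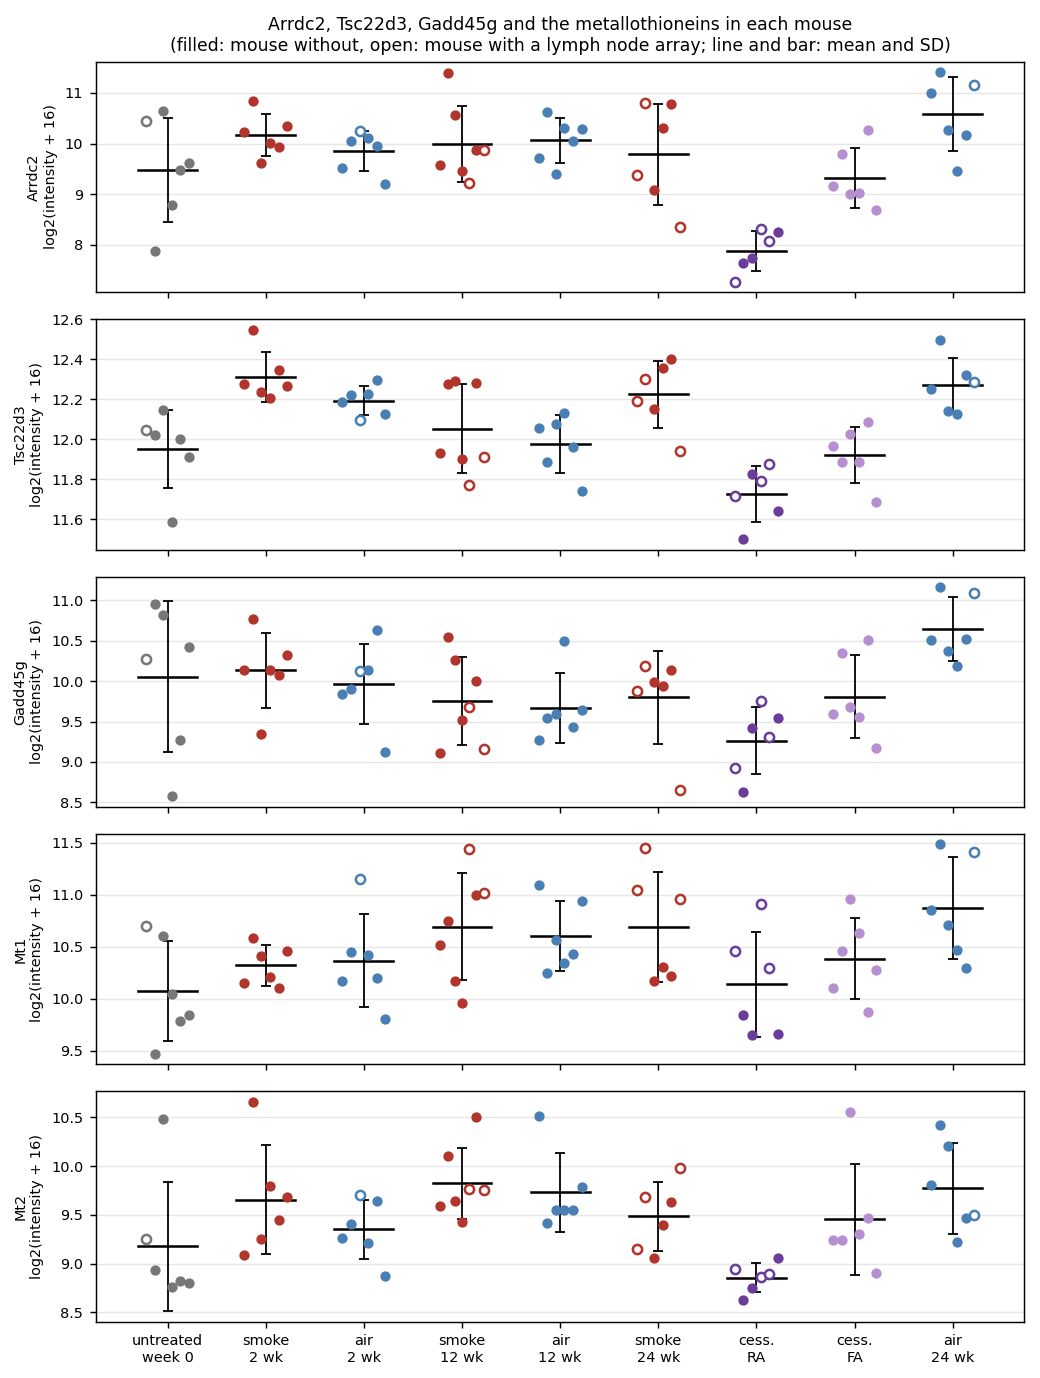
Log2(intensity + 16) of Arrdc2, Tsc22d3, Gadd45g, Mt1 and Mt2 (vertical axes) in each mouse of the 9 groups (horizontal axis), filled for mice without and open for mice with a lymph node array, with group mean and SD. Cessation RA lies wholly below sham air at 24 weeks for each of these genes except Mt1, where the RA mice with a lymph node array, at 10.30 to 10.91, lie among the sham air mice.

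The metallothioneins Mt1 and Mt2 were close in their pattern but differed in how they followed the lymph node arrays. Mt2 in cessation RA was 8.63, 8.87 and 9.05 at the lowest, median and highest, the narrowest spread of Mt2 in any group. In sham air at 24 weeks it was 9.22, 9.65 and 10.42, with no overlap. The difference was -0.92 ± 0.25, or 1.89-fold lower in cessation RA (adjusted p = 0.0442). The 45 mice gave -1.02, which was not called (adjusted p = 0.0894). With each of the 12 mice left out in turn the Mt2 call held in 3 of 12 fits, with adjusted p up to 0.143.

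Mt1 in cessation RA was 9.66, 10.07 and 10.91, against 10.30, 10.78 and 11.49 in sham air at 24 weeks. The groups overlapped, and the difference of -0.73 ± 0.25 was not called (adjusted p = 0.135). The 3 RA mice with a lymph node array had the higher Mt1 levels of that group, at 10.30, 10.46 and 10.91, and the other 3 RA mice had 9.66, 9.66 and 9.85. Without the lymph node arrays the difference was -1.04 (adjusted p = 0.00946). In mouse G8 of smoke at 12 weeks, measured on both kinds of array, Mt1 was 11.77 on the array with lymph node signal and 10.27 on the one without, and Mt2 was 10.09 and 9.41 on these arrays. The lymphocyte means of those arrays were 10.07 and 4.85.

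The probe set used for Mt1 carries the suffix of sets that can match more than 1 transcript, and the gene's other set, whose mean of 5.70 lay just under the filter, differed by -1.17 between cessation RA and sham air. In cessation FA neither metallothionein was called against sham air, at -0.48 ± 0.25 for Mt1 (adjusted p = 0.731) and -0.32 ± 0.25 for Mt2 (adjusted p = 0.863). Smoke at 24 weeks lay wholly above cessation RA for Mt2, by 0.63 ± 0.25 (adjusted p = 0.197), which was not called. By group mean Mt2 was highest in smoke at 12 weeks (9.82 ± 0.36), sham air at 24 weeks (9.77 ± 0.46) and sham air at 12 weeks (9.73 ± 0.40), which differed by less than their spread. Mt1 was highest in sham air at 24 weeks (10.87 ± 0.49) and lowest in untreated mice (10.07 ± 0.48), with cessation RA (10.14 ± 0.50) next.

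Cebpd encodes a transcription factor that the hormone and inflammatory signals raise within hours. Its levels were 8.11, 8.44 and 8.69 in cessation RA, against 8.38, 9.10 and 9.88 in sham air at 24 weeks, with overlap. The difference of -0.62 ± 0.23 was not called (adjusted p = 0.181), and the gene's other probe set gave -0.83. Cebpd in smoke at 24 weeks was 0.52 ± 0.23 below sham air (adjusted p = 0.169), which became -0.25 without the lymph node arrays.

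Sgk1 encodes a kinase that the hormone raises and that acts on ion transport and FOXO factors. Its levels were 12.56, 12.75 and 12.94 in cessation RA, 12.82, 12.94 and 13.08 in smoke at 24 weeks and 12.77, 12.89 and 13.01 in sham air at 24 weeks. Smoke was 0.21 ± 0.05 above cessation RA, or 1.15-fold (adjusted p = 0.0241), and 3 of 6 smoke mice exceeded every RA mouse. Without replicate 5 of smoke (adjusted p = 0.0602) or replicate 6 of cessation RA (adjusted p = 0.104) that call was lost, as it was with quantile normalization (adjusted p = 0.113). Cessation RA was -0.13 ± 0.05 relative to sham air, which was not called (adjusted p = 0.237). Group means spanned only 0.21.

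Klf9 encodes a transcription factor raised by glucocorticoids and thyroid hormone, and it varied least among groups, with means within 0.16 of each other on the probe set used. In cessation RA it differed from sham air at 24 weeks by 0.04 ± 0.08 (adjusted p = 0.852). Its low mean in smoke at 24 weeks, 12.48 ± 0.29, came with 1 mouse at 11.89 that had a lymph node array, while the median there was 12.60. The difference of smoke from sham air at 24 weeks was -0.05 on the probe set used, while the gene's other 4 probe sets above the filter gave -0.27, -0.30, -0.37 and -0.49. Its differences of -0.09 between smoke at 24 weeks and either cessation arm turned to 0.06 without the lymph node arrays and were not called in either case.

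Fkbp5 encodes a cochaperone that the receptor induces and that in turn lowers the receptor's affinity for hormone. Its order of groups differed from that of Arrdc2. Its lowest group was smoke at 24 weeks, with 8.65, 8.85 and 9.20, against 9.16, 9.53 and 9.81 in sham air at 24 weeks, and 5 of 6 smoke mice lay under the lowest air mouse. The difference of -0.61 ± 0.23 was not called (adjusted p = 0.115) and was -0.70 without the lymph node arrays (adjusted p = 0.145). At 2 weeks Fkbp5 was 0.47 ± 0.23 higher in smoke than in sham air, where 3 of 6 exposed mice exceeded every air mouse and the adjusted p was 0.998. The change of the smoke effect between those times was -1.08 ± 0.33 and was not called (unadjusted p = 0.0019, adjusted p = 0.17).

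In cessation RA Fkbp5 had 8.52, 9.04 and 10.01 and spread on both sides of sham air, with 4 mice below its lowest and 2 above its highest. The difference there was -0.28 ± 0.23 (adjusted p = 0.619), and 0.02 over the 45 mice, so it has no settled direction. Cessation FA was at 9.56 ± 0.42, close to sham air at 9.51 ± 0.25.

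The receptor gene Nr3c1 varied little between groups. Its level was 11.42, 11.73 and 12.08 in cessation RA and 11.40, 11.84 and 11.96 in sham air at 24 weeks, a difference of -0.01 ± 0.13 (adjusted p = 0.978), and its group means spanned 0.25 over the 9 groups. All 6 probe sets passed the filter, and their differences in that comparison ran from -0.30 to 0.13. The ends of the order of groups were untreated mice at 11.84 ± 0.28 and sham air at 12 weeks at 11.59 ± 0.18. They lay 0.25 apart, against a pooled SD within groups of 0.22.

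**Figure D3:**
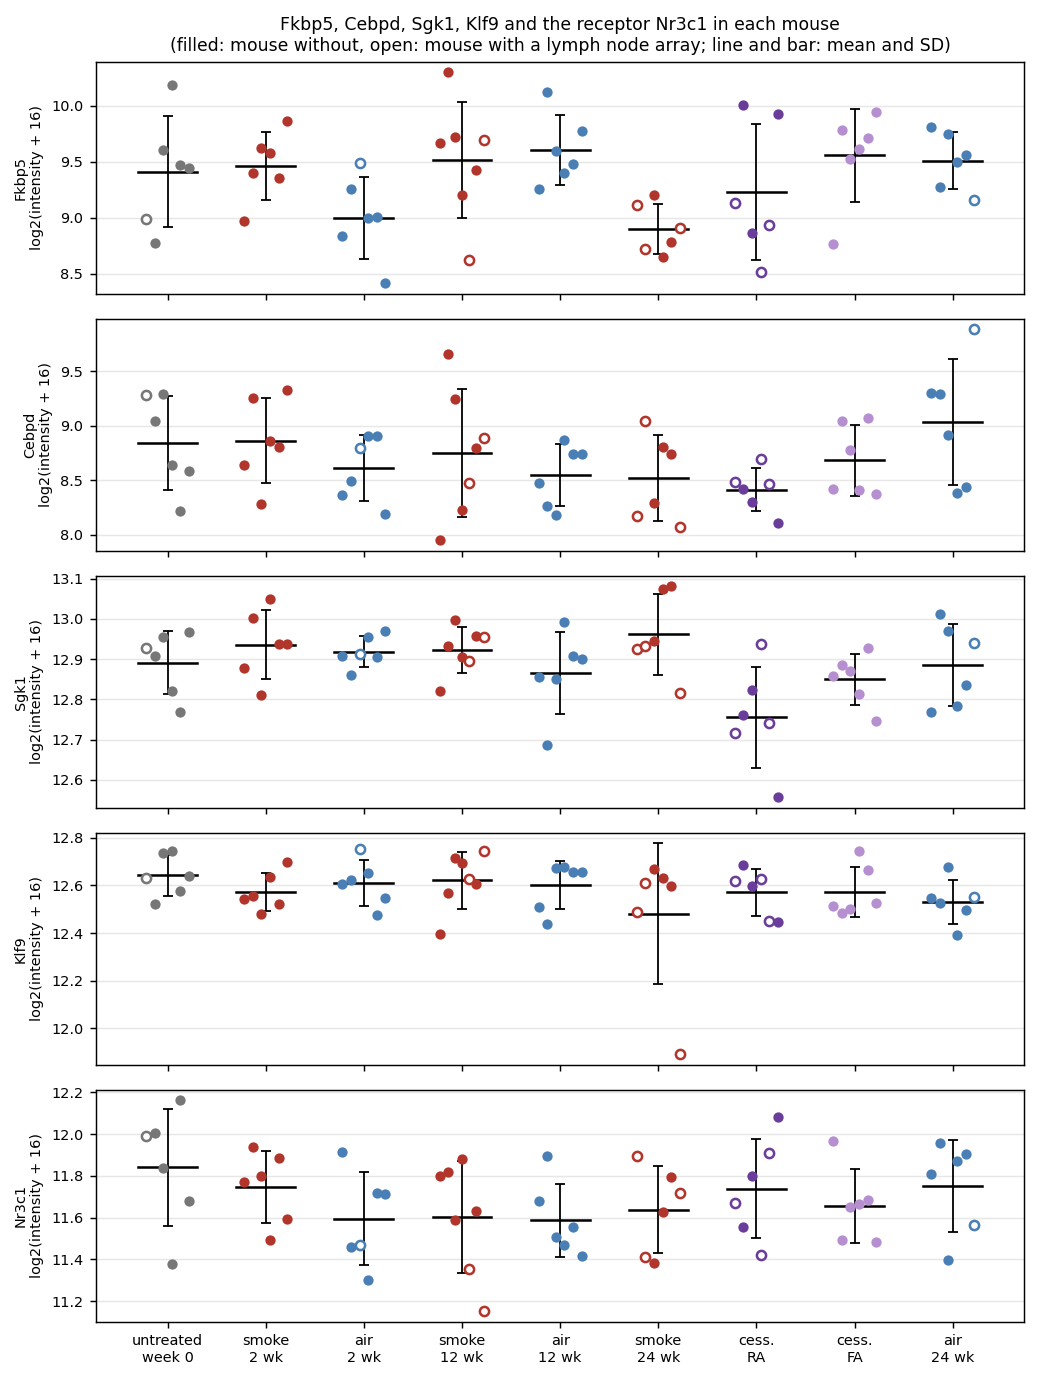
Log2(intensity + 16) of Fkbp5, Cebpd, Sgk1, Klf9 and Nr3c1 (vertical axes, each with its own range) in each mouse of the 9 groups (horizontal axis), filled for mice without and open for mice with a lymph node array, with group mean and SD. Fkbp5 is lowest in smoke at 24 weeks, at 8.65 to 9.20, and 1 smoke mouse at 11.89 lies apart for Klf9.

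The sham air groups themselves are the background of these comparisons. From 2 to 24 weeks of sham air 0 of the 10 genes were called, with 2 at an unadjusted p under 0.05, where 0.219% of all genes, 27 in number, were called and 11.8% had such a p. Even so, 8 of 10 differences of sham air at 24 weeks minus 2 weeks lay above 0, where 58.5% of all genes did, with a median of 0.42 against 0.03. The largest were Arrdc2 at 0.73 ± 0.39 (adjusted p = 0.457) and Gadd45g at 0.68 ± 0.31 (adjusted p = 0.376). Sham air at 24 weeks was thus the highest of the 9 groups by mean for Arrdc2, Gadd45g, Mt1 and Cebpd, and it is the group against which both cessation arms were set. The 8 slow fibre markers all lay above 0 from 2 to 24 weeks as well, with a median of 0.42 and 0 called, and their mean was 11.95 to 12.69 at 24 weeks and 11.58 to 12.14 at 2 weeks.

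Sham air at 12 weeks against 2 weeks called 0 of 10 genes, with 2 at an unadjusted p under 0.05, where 0.0081% of all genes, 1 gene, were called and 6.21% had such a p. Sham air at 2 weeks against untreated mice, which spans the first 2 weeks of sham exposure and of age, called 0 of 10 with 1 at an unadjusted p under 0.05, where 0.518% of all genes, 64 in number, were called and 7.39% had such a p. Its differences ran from -0.41 for Fkbp5 to 0.37 for Arrdc2, 5 above and 5 below 0.

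Of 30 other genes known to be induced by glucocorticoids, 28 were measured. In cessation RA against sham air at 24 weeks 2 were called lower and 1 higher, where 1.76% of all genes were called in either direction. Per1, a clock repressor and direct receptor target, was lower by the most, at -1.93 ± 0.22 (adjusted p = 4.66e-08), and Cebpb, the relative of Cebpd, was at -0.52 ± 0.14 (adjusted p = 0.031, and 0.119 over the 45 mice). Cited2, a transcriptional coregulator, was higher at 0.28 ± 0.08 (adjusted p = 0.041). Over the 45 mice 3 were lower and 2 higher, as Mertk at -0.47 (adjusted p = 0.0205), Sult1a1 at -0.77 (adjusted p = 0.00564) and Cdkn1a at 0.74 (adjusted p = 0.0484) were called as well. Genes named here and below for a call over the 45 mice alone are named after their values were seen. The median over the 28 was -0.10, with 17 below 0, against -0.58 for the listed genes. Cessation FA called 0 of the 28, with Per1 at -0.90 ± 0.22 (adjusted p = 0.0801).

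Mice smoking at 24 weeks had Klf15, a hormone-induced regulator of amino acid use, lower than in sham air, at -0.78 ± 0.19 (adjusted p = 0.0397). It was the only gene of the 28 called there, where 0.47% of all genes were, and the call was lost without the lymph node arrays (adjusted p = 0.08). Against cessation RA, Per1 was higher in smoke at 1.24 ± 0.22 (adjusted p = 0.000335), while Cdkn1a, a cell cycle inhibitor, and Cited2 were lower, at -0.82 ± 0.20 (adjusted p = 0.0134) and -0.40 ± 0.08 (adjusted p = 0.00115). Against cessation FA, Bcl6, a transcriptional repressor, was higher in smoke (0.40 ± 0.09, adjusted p = 0.00757), and Cited2 (-0.32 ± 0.08, adjusted p = 0.0173) and Lpin1, a phosphatidate phosphatase (-0.28 ± 0.08, adjusted p = 0.0443, and 0.151 over the 45 mice), were lower.

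Genes of the wider list were called over the first 2 weeks of sham air and of age, where 0 of the 10 listed genes were. In sham air at 2 weeks against untreated mice 4 of the 28 were lower and 0 higher, where 0.518% of all genes were called. The muscle ubiquitin ligase Fbxo32 was at -1.05 ± 0.22 (adjusted p = 0.00723), Cdkn1a at -0.88 ± 0.20 (adjusted p = 0.0149), the pyruvate dehydrogenase kinase Pdk4 at -0.73 ± 0.14 (adjusted p = 0.00344) and Cited2 at -0.37 ± 0.08 (adjusted p = 0.0063). From 2 to 24 weeks of sham air Pdk4 was higher by 0.67 ± 0.14 (adjusted p = 0.0179), the only 1 of the 28 called, where 0.219% of all genes were. Over the 45 mice 4 were called higher there, Pdk4 with Fbxo32 at 0.80 (adjusted p = 0.0301), Cebpb at 0.49 (adjusted p = 0.0318) and Mertk at 0.37 (adjusted p = 0.0434). Smoke against sham air at 2 and at 12 weeks called 0 of the 28, and the lowest unadjusted p were 0.00108 for Pdk4 at 2 weeks and 0.00917 for Glul at 12 weeks.

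Genes of receptor folding and hormone conversion were measured for 11 of 16. None was called in cessation RA or FA against sham air, where Dnajb1, a cochaperone of the heat shock response, was closest, at -0.64 ± 0.18 in RA (adjusted p = 0.0556). Dnajb1 was lower in RA and called over the 45 mice, at -0.90 (adjusted p = 0.00407). In smoke at 24 weeks Dnajb1 was higher than in cessation RA, by 0.85 ± 0.18 (adjusted p = 0.00484), and than in cessation FA, by 0.62 ± 0.18 (adjusted p = 0.0441). The chaperone gene Hsp90aa1, which holds the receptor ready for hormone, was higher in smoke than in cessation FA by 0.40 ± 0.10 (adjusted p = 0.0236). Without the lymph node arrays these calls against cessation FA were lost, with adjusted p of 0.272 for Dnajb1 and 0.0558 for Hsp90aa1.

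Metal handling genes other than the metallothioneins, among them zinc transporters and ferritin, were measured for 19 of 23. In cessation RA against sham air 0 of the 19 were called while Mt2 was, and their median was 0.02 with 10 above and 9 below 0. Over the 45 mice 1 of the 19 was called higher, the thioredoxin reductase gene Txnrd1, at 0.27 ± 0.07 (adjusted p = 0.0278), against 0.16 ± 0.07 over all mice (adjusted p = 0.251). The lowest unadjusted p belonged to the zinc importer Slc39a10, at 0.23 ± 0.09 (adjusted p = 0.199), and to Gclc, the glutathione synthesis enzyme, at 0.25 ± 0.11 (adjusted p = 0.246). Smoke at 24 weeks against sham air also called 0 of the 19.

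Relatives of the listed genes divided. In cessation RA against sham air Arrdc3, the arrestin domain relative of Arrdc2, was lower at -0.52 ± 0.13 (adjusted p = 0.0174, and 0.0558 over the 45 mice), and the other 5 measured relatives of that family were not called. Arrdc4 was called in its place over the 45 mice, at -0.75 (adjusted p = 0.031). Arrdc3 was also higher in smoke at 24 weeks than in cessation RA (0.57 ± 0.13, adjusted p = 0.00629) and cessation FA (0.52 ± 0.13, adjusted p = 0.0177). Gadd45b, a relative of Gadd45g, differed by 0.46 ± 0.20 in cessation RA against sham air, which was not called (adjusted p = 0.273), and over the 45 mice it was higher in RA and called, at 0.58 (adjusted p = 0.0405). Of the 9 measured Klf and Cebp relatives, Klf10 (-0.69 ± 0.15, adjusted p = 0.00694), Klf6 (-0.35 ± 0.10, adjusted p = 0.044) and Cebpb were lower there, where 1.76% of all genes were called. All 9 lay below 0, as did 53.2% of all genes. Over the 45 mice 8 of 9 relatives lay below 0. Klf2 was called at -1.27 (adjusted p = 0.0485) where Cebpb was not, and 3.43% of all genes were called. The TSC22 domain relatives and the Sgk and Fkbp relatives had none called in that comparison.

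Clock genes were called in that comparison and in others. Of 18 measured clock genes, 4 were higher and 7 lower in cessation RA against sham air at 24 weeks, where 1.76% of all genes were called. Among them were the activator Npas2 at 1.80 ± 0.20 (adjusted p = 4.66e-08) and the repressors Per2 at -1.58 ± 0.20 (adjusted p = 1.03e-06) and Ciart at -1.41 ± 0.24 (adjusted p = 0.000286). Npas2 was also higher in cessation RA than in cessation FA, at 1.20 ± 0.20 (adjusted p = 0.0023). In cessation FA only Arntl was called, higher at 0.73 ± 0.16 (adjusted p = 0.0391). In sham air at 2 weeks against untreated mice 2 clock genes were higher and 2 lower, where 0.518% of all genes were called. Arntl was at -1.38 ± 0.16 there (adjusted p = 2.21e-07), although no listed gene was called. Clock genes called in smoke at 24 weeks against cessation RA included Npas2 (-1.76, adjusted p = 9.65e-08) and Nr1d1 (-1.79, adjusted p = 3.48e-11), both lower. Per2 was higher there (1.62, adjusted p = 4.37e-07), where 2.34% of all genes were called. Nr1d1 was also lower in smoke at 24 weeks than in cessation FA (-1.41, adjusted p = 9.81e-08). The hour of collection was not stated. The part of the clock genes in the differences of Arrdc2, Tsc22d3, Gadd45g, Mt2 and the other listed genes was not tested, in these or in the smoke comparisons.

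Variation between mice of the same group was examined apart from the group differences, over the same 45 mice and with group means removed. Of 45 pairs of listed genes, 16 correlated at a permutation p, adjusted over the pairs, under 0.05, and 15 of these were positive. Pairs of other genes were not run through this test, so the count has no share over all genes beside it. Array brightness that genes share can raise such correlations, and its part was not tested. All 10 pairs among Arrdc2, Tsc22d3, Gadd45g, Cebpd and Mt2 were of these, and Sgk1 passed with Tsc22d3, Gadd45g, Cebpd and Klf9. Over all 55 mice Arrdc2 with Mt2 (r = 0.35, adjusted permutation p = 0.059) and Gadd45g with Mt2 (r = 0.31, adjusted permutation p = 0.11) did not pass. Pairs that passed only over all 55 mice were Arrdc2 with Sgk1, Tsc22d3 with Nr3c1, Mt1 with Cebpd, Klf9 with Cebpd and Fkbp5 with Sgk1. Tsc22d3 with Gadd45g gave a Pearson r of 0.71 (adjusted permutation p = 0.00015) and a Spearman rho of 0.65 (adjusted permutation p = 0.0003), and r was 0.64 without the 2 mice farthest from the median of Tsc22d3. Gadd45g with Cebpd gave r = 0.70 and rho = 0.72, with adjusted permutation p of 0.00015 and 0.0003, and r was 0.76 without the 2 farthest mice. The lowest p that 100000 resamples can give is 1e-05.

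Mt1 with Mt2 had the highest Pearson r of the pairs, though not the highest Spearman rho, with r = 0.73 (adjusted permutation p = 0.00015) and rho = 0.64 (adjusted permutation p = 0.0003). Without the 2 farthest mice r was 0.66, and over all 55 mice it was 0.52. The Mt1 probe set can match more than 1 transcript, and the part of this in the pair was not tested. The gene's other set, under the filter, correlated with the one used at 0.54 over all mice, group means kept. Arrdc2 with Cebpd gave r = 0.66 (adjusted permutation p = 0.00056) and rho = 0.68 (adjusted permutation p = 0.00034), and r fell to 0.57 without the 2 farthest mice. The single negative pair of the 16 was Klf9 with Nr3c1, at r = -0.60 (adjusted permutation p = 0.00072) and rho = -0.60 (adjusted permutation p = 0.00077). Without the 2 farthest mice r was -0.65. This pair rests on 1 probe set of each gene. Over all mice, group means kept, the other Nr3c1 probe sets correlated with the one used at only -0.10 to 0.47. Those of Klf9 did so at 0.14 to 0.79. Fkbp5 was in none of the 16 pairs, but over all 55 mice it passed with Sgk1, also negative, at r = -0.37 (adjusted permutation p = 0.026). Mice of 1 group share their exposure but may differ in the piece of muscle and the hour of collection, whose part was not tested.

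**Figure D4:**
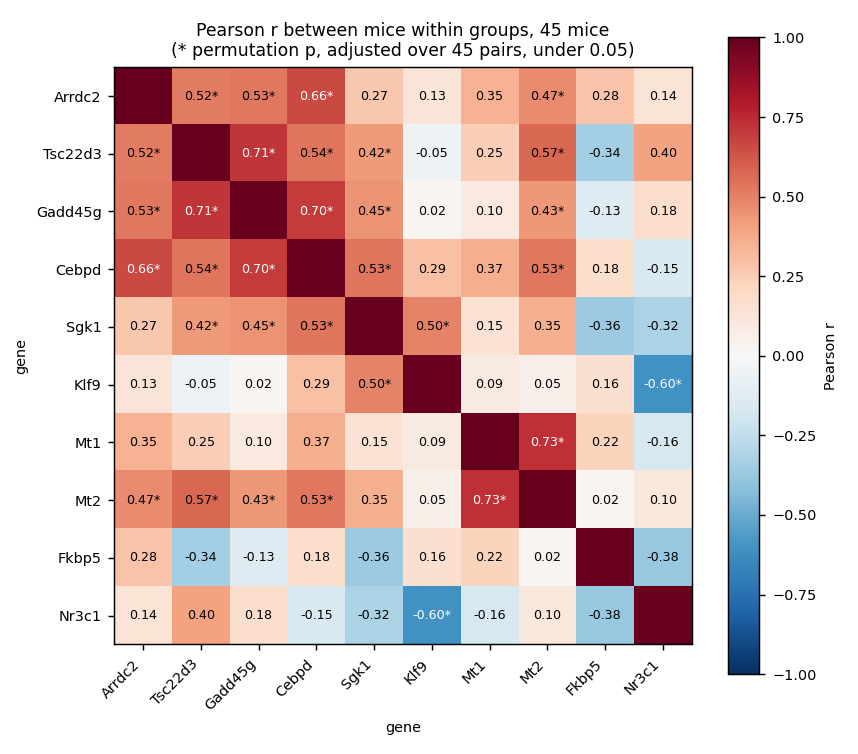
Pearson r of each pair of the 10 listed genes over 45 mice after subtraction of group means, with the genes on both axes, colour from -1 to 1, and a star where the permutation p adjusted over 45 pairs is under 0.05. Arrdc2, Tsc22d3, Gadd45g, Cebpd and Mt2 pair with r between 0.43 and 0.71, Mt1 pairs with Mt2 at 0.73, and Klf9 with Nr3c1 is at -0.60.

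The genes whose levels most resembled each listed gene were taken over the same 45 mice, without removal of group means, as a description. Arrdc2 was most like Per1 (r = 0.85), the kinase gene Map3k6 (0.83) and Aph1a, a gamma-secretase subunit (0.83). Gadd45g was most like Errfi1, a feedback inhibitor of the EGF receptor (0.87), the small GTPase gene Rhob (0.86) and the transcription factor gene Klf2 (0.85). Tsc22d3 was most like Slc25a25, a mitochondrial carrier of adenine nucleotides (0.84), Rhob (0.79) and Hdgfl2 (0.78). Cebpd was most like Slc10a6 (0.73), Gadd45g (0.73) and Ddit4, an inhibitor of mTORC1 signalling (0.70).

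The metallothioneins were most like each other (0.79). Mt1 was next most like Tmem219 (0.75) and the beta-galactosidase gene Glb1 (0.74), and Mt2 next most like Map3k6 (0.66) and Tent5a (0.65). Fkbp5 had the weakest likenesses, to Tfdp2 (0.68), Tango2 (0.67) and the insulin receptor gene Insr (0.65), and Sgk1 was most like Tob2 (0.73), Zfp58 (0.72) and Mtus1 (0.71). Klf9 was most like Tmed5, Fat4 and Pcmtd2 (0.86 to 0.88), and Nr3c1 was most like Ranbp1, Yipf4 and Kansl1 (0.79 each). The genes named for Klf9, Nr3c1, Fkbp5, Sgk1, Cebpd and Mt1 were shared with no other listed gene. The probe sets of Mt1, Fat4, Pcmtd2, Slc25a25, Hdgfl2, Tob2 and Mtus1 carry a suffix of sets that can match more than 1 transcript. These mice share arrays, groups and array brightness, which can raise all such likenesses.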

How the data were processed

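Intensity values per probe set on a linear scale were deposited by the authors for 56 arrays. Per the labels' protocols, RNA was amplified and biotin-labelled with NuGEN Ovation kits. Summarisation and normalisation are not given in the sources used here. Values were floored at -15 (5 of 2522072), 16 was added and log2 taken. Probe sets with 1 symbol in the platform annotation (34945) were named through a RefSeq table (GRCm38.p6), and the brightest per gene was kept. Genes under the 40th percentile, a log2 level of 5.71, were left out. One limma 3.58.1 model (R 4.3.3) held 55 mice in 9 groups. It was run on simulated data with independent noise for each gene, which lack the lymph node signal and shared brightness of these arrays. A lymph node array had a lymphocyte marker mean over 8.5.

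Members, lists and tests were chosen with earlier results of these data known. The comparison that led to each member is not recorded, so p values are descriptions. All listed genes are named, and of other lists those past the threshold (up to 4) or of lowest p, shortened where none passed, and 3 most like each member. Alternatives were other pseudocounts, filters, normalization, probe set rule, moderation, weights, groups, array choices, covariates and each mouse left out.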

Additional observations from a re-analysis of the deposited data

Results flagged for a closer look

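Of the 90 combinations of a listed gene and a group, 7 had a mouse that stood apart from the others of its group, judged by the gap to the nearest mouse relative to the group's range (Dixon's ratio), where chance gives about 1 in 20. Mt2 gave 3 of the 7, each a single high mouse. In cessation FA replicate 3 stood at 10.55, in sham air at 12 weeks replicate 1 at 10.52 and in untreated mice replicate 3 at 10.48, where the nearest mice were at 9.47, 9.78 and 9.26. None of these 3 had a lymph node array. Replicate 6 of smoke at 24 weeks, which had one, was low for Gadd45g at 8.66, with the nearest mouse at 9.88, and for Klf9 at 11.89, with the nearest at 12.49. Replicate 4 of sham air at 12 weeks was high for Gadd45g at 10.50, and replicate 1 of cessation FA was low for Fkbp5 at 8.76. The part of the lymph node tissue in these values was not tested beyond the mice named.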

How the results depend on the processing

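In cessation RA against sham air at 24 weeks, Arrdc2, Tsc22d3 and Gadd45g kept their direction and their call in 17 of 17 alternatives and in 12 of 12 fits with 1 mouse left out, with differences of -2.78 to -2.48, -0.61 to -0.32 and -1.42 to -1.31 over the alternatives. Mt2 kept its call in 10 of 17. The number of listed genes called there was 3 to 4 with 1 mouse left out. For smoke at 24 weeks against cessation RA that range was 2 to 3, and the count was 0 when only the compared groups were fitted, a fit with fewer mice. Tsc22d3 lost that call with the mean of its probe sets (0.26, adjusted p = 0.0713), and Sgk1 with quantile normalization (adjusted p = 0.113) and without arrays whose identifiers lie outside the main run (adjusted p = 0.0608). For smoke at 24 weeks against cessation FA the count of 1 became 0 without a filter on dim genes, with quantile normalization, with only the compared groups, with the second array of mouse G8 alone, with a lower limit for lymph node arrays that was added after the data were seen, and without arrays whose identifiers lie outside the main run. With the mean of probe sets Tsc22d3 moved to 0.09 (adjusted p = 0.441) and Fkbp5 was called in its place (-0.40, adjusted p = 0.0471). The count was 2 with array weights and 0 to 2 with 1 mouse left out. The cause was not tested. With array weights the counts for cessation FA against sham air at 24 weeks, for the change of the smoke effect between 2 and 24 weeks and for sham air at 2 weeks against untreated mice were each 1 in place of 0. For the other comparisons the count was 0 under every alternative run.

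Directions turned for Klf9, Fkbp5 and Mt1, in differences that were not called under either setting. Klf9 in smoke at 24 weeks against cessation FA was 0.0773 with array weights, 0.0605 without lymph node arrays and 0.0951 with the lower limit, and with 1 mouse left out it ran from -0.128 to 0.0272. Against cessation RA it was 0.0237, 0.0571 and 0.0571 in the same settings, and with 1 mouse left out it ran from -0.1265 to 0.0287. Both upper ends are the fits without replicate 6 of smoke. Fkbp5 became 0.0205 in cessation RA against sham air at 24 weeks without lymph node arrays, at either limit, and 0.0414 and 0.0529 against cessation FA. Mt1 in smoke at 24 weeks against cessation FA became -0.15 and -0.10. The number of correlated pairs was 16 to 19 under the alternatives.

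The number in a mouse's name recurs between groups for 14 of 18 numbers, but no label says that it ties animals together. Of 85 pairs of mice in different groups with the same number, 42.4% had deviations from their group means that correlated over 0.1, against 43.1% of other pairs. With the number as a replicate block, added after the data were seen, 3 listed genes were called in cessation RA against sham air at 24 weeks, 1 in smoke at 24 weeks against cessation RA and 0 against cessation FA. The precision is limited by 6 or 7 mice per group, and the arrays with lymph node signal leave 3 mice each in smoke at 24 weeks and cessation RA.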
